A study of Sus scrofa with 6 samples.

Results

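The anaphase-promoting complex, or cyclosome (APC/C), is the ubiquitin ligase that lets an oocyte leave metaphase, and its messages were followed in porcine oocytes cultured under heat stress with or without nicotinamide mononucleotide (NMN). The 10 genes described were chosen by name, with earlier results of these data known. They encode the scaffold and substrate-binding subunits ANAPC1, ANAPC4 and ANAPC10, the catalytic subunit ANAPC11, the arm subunits CDC16, CDC23 and CDC27 with their small partner CDC26, and the co-activators CDC20 and FZR1. All 10 were among the 29861 genes in the deposited table.

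RNA of oocytes from abattoir ovaries was sequenced in 3 groups of 2 samples, with each value given as FPKM (fragments per kilobase of transcript at a common sequencing depth). The control oocytes had neither treatment, and the heat-stressed oocytes were cultured at a raised temperature for 24 h. The NMN-supplemented oocytes received the same heat with NMN, a precursor of the coenzyme NAD+, in the medium. Per the methods, culture then went on at the control temperature up to the stage analysed. The labels give 24 h for every group, so the RNA may date from the end of the heat or from later. Below, under heat stress and with NMN name these groups. Oocytes were pooled within a group, and the labels give the germinal vesicle (GV) stage whereas the methods give collection at metaphase II, so the stage at collection is not certain. Strain, age of the animals and whether the samples of a group came from separate collections are not given in the sources used here, and the P-values then measure only the spread between these samples.

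APC/C marks securin and cyclin B with ubiquitin, and their destruction frees separase to part the chromosomes and lowers CDK1 activity. CDC20 brings substrates to the complex at metaphase. FZR1, also named CDH1, takes this role at other times and, in GV oocytes, holds cyclin B1 low so that meiosis does not resume early. In mature oocytes the inhibitor FBXO43 (EMI2) keeps APC/C in check until fertilization. Transcription is almost silent in grown oocytes, and stored messages are translated when their poly(A) tails are lengthened, a process directed by short motifs near the 3′ end.

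For this reason the 3′ ends of the members that carry the results are shown, each as 30 bases of the longest RefSeq mRNA in the Sscrofa11.1 assembly, 5′ to 3′, written as DNA. Capitals mark the poly(A) signal (AATAAA or ATTAAA) and, in ANAPC11, also the cytoplasmic polyadenylation element TTTTAT.
CDC20, chr6:167886280-167886309, minus strand: ttttttttttacttttctAATAAAgccaca
FZR1, chr2:75122609-75122638, minus strand: tagtgaaatgtgcgtaacATTAAAgtgtat
CDC27, chr12:16882233-16882262, plus strand: aaggatatgaaaagtccaAATAAAttactt
ANAPC11, chr12:1095105-1095134, minus strand: cTTTTATccaataagtaaaactcATTAAAc
In the last 100 nt of the mRNA, read on the transcript strand, TTTTAT or TTTTAAT occurred in ANAPC10, ANAPC11 and CDC23, that is in 3 of 10 members, against 15.3% of 20641 protein-coding genes and 24.7% of the 4153 with a mean of at least 1 FPKM. AATAAA occurred in 4 of 10 members against 51.7% of protein-coding genes, and ATTAAA in 5 of 10 against 16.5%. CDC27 held both forms. CDC26, which is tested below, had none of these motifs in its last 100 nt. These matches are of letters only and show no use of a site.

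The promoter of CDC20 is shown because CDC20 was the most abundant member and the only one with a cell cycle genes homology region (CHR), the motif TTTGAA through which many genes of late cell cycle phases are repressed in resting cells. The 250 bases before the start of transcription (chr6:167890588-167890837, minus strand) hold the reverse form TTCAAA, in capitals, 79 bases before the start.
CDC20 promoter: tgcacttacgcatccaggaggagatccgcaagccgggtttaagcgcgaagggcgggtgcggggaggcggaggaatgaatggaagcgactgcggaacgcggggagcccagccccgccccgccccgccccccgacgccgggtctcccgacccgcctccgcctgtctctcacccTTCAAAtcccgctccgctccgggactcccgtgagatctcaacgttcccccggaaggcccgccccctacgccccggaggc
The CHR was sought on both strands and was found in 1 of 10 members, against 13.0% of 20634 protein-coding genes. CCAAT, also sought on both strands, was found in ANAPC4, ANAPC11 and CDC27, or 3 of 10 members, against 32.0%. The CDC20 window also overlaps an exon of the long non-coding RNA LOC102158889 on the opposite strand.

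The members spanned a wide range of levels. CDC20 was the most abundant, with a mean over the 6 samples of 7.40 FPKM, and made up 45.9% of the summed FPKM of the 10 genes. CDC27 followed at 3.46, ANAPC11 at 2.22 and CDC26 at 1.69 FPKM. The other 6 lay under 1 FPKM, with CDC16 at 0.536, ANAPC1 at 0.352, FZR1 at 0.224, ANAPC10 at 0.197, ANAPC4 at 0.0483 and CDC23 at 0.00204 FPKM. CDC20 exceeded every other member in every sample, and the ranges of the 6 samples did not overlap between CDC20 and CDC27, between CDC26 and CDC16, or between ANAPC10 and ANAPC4. CDC27, ANAPC11 and CDC26 overlapped with their neighbours in this order, as did CDC16, ANAPC1, FZR1 and ANAPC10. With control samples alone, ANAPC11 stood above CDC27 and FZR1 above ANAPC1.

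**Figure D1:**
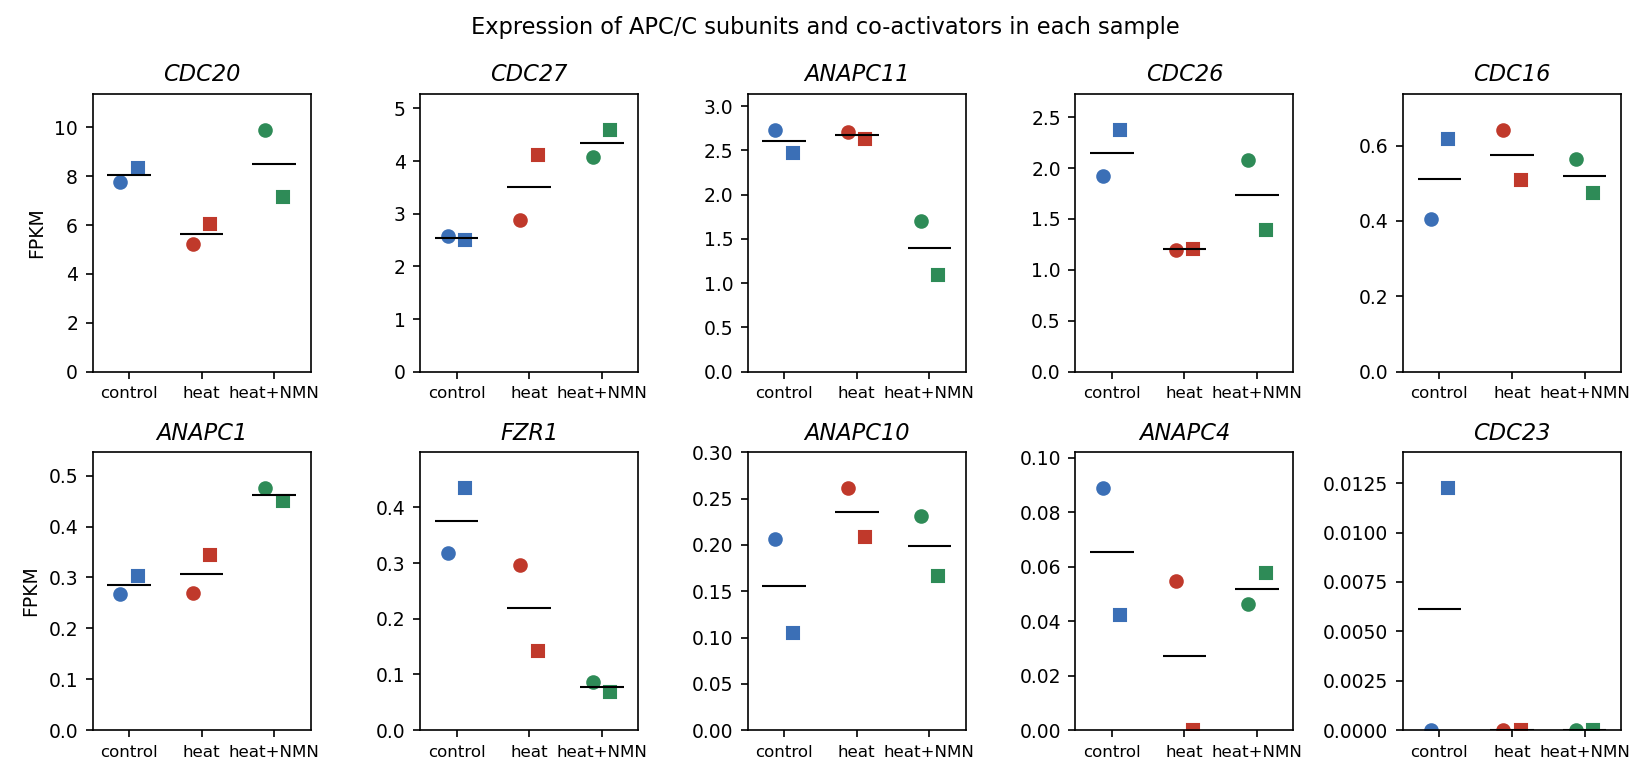
FPKM of the 10 members on the y axis, with its own scale in each panel, against group on the x axis (heat+NMN is the NMN-supplemented group). Circles are replicate 1, squares replicate 2 and lines the group mean. CDC20 dips in the heat-stressed samples, ANAPC11 is low in the NMN-supplemented samples, CDC27 and ANAPC1 are high there, and FZR1 is lower at each step.

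Read counts were not used here, but the lowest FPKM of single-transcript genes piled up at steps that give the worth of a whole fragment. From these steps the library size behind the FPKM was estimated at 7670000 to 12000000 fragments per sample. This is the size to which the deposited values were scaled, and the number of mapped fragments may differ. The estimated fragments behind a member were 59.2 to 148 per sample for CDC20 and 117 to 200 for CDC27, but 2.7 to 10.5 for ANAPC11, whose mRNA is 573 nt long. CDC26 rested on 25.6 to 79.5, ANAPC1 on 23.5 to 49.6, CDC16 on 7.9 to 14.9 and FZR1 on 2.5 to 23.3 fragments. If the shortest transcript were the one present, CDC26 would rest on 7.1 to 22.2 and FZR1 on 0.8 to 7.1 fragments. These numbers carry counting error and the error of the estimated steps, and for members with several transcripts they depend on the length assumed (the median length). ANAPC4 at up to 3.4, ANAPC10 at up to 1.2 and CDC23 at up to 0.3 fragments could hardly be followed at this depth, and the number for ANAPC10 would be higher if its longest transcript were the one present.

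**Figure D2:**
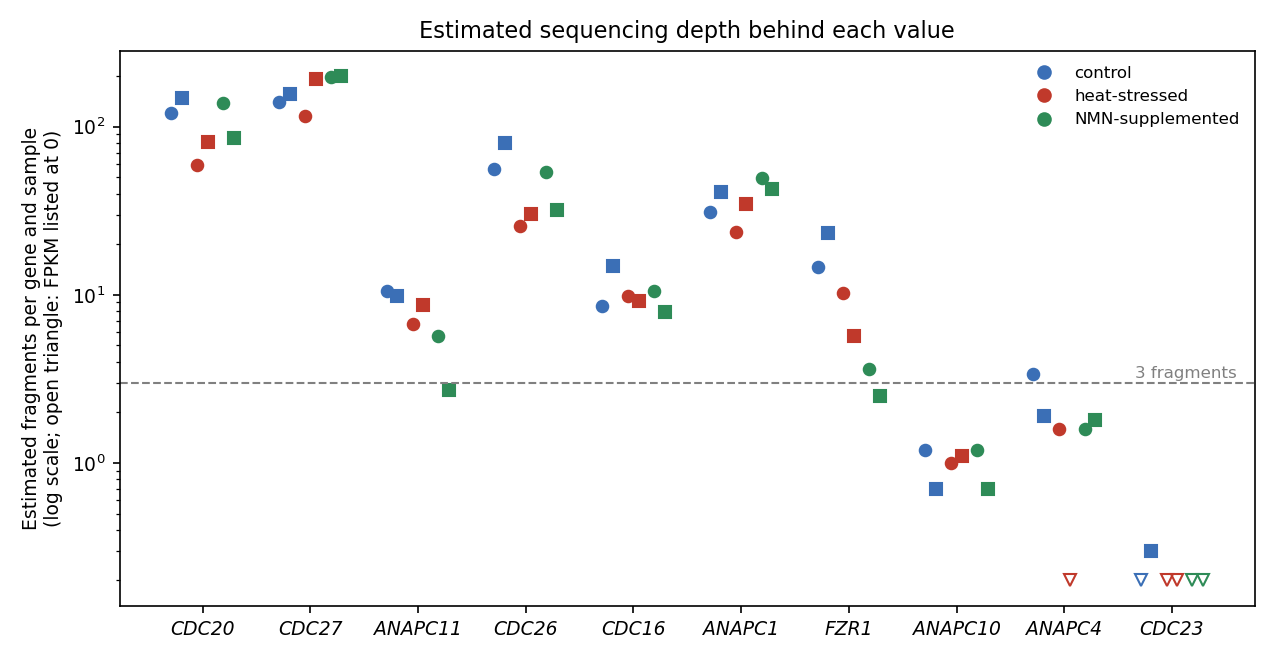
Estimated fragments per sample on a log y axis for each member on the x axis, with circles for replicate 1, squares for replicate 2, color for the group and open triangles for an FPKM listed at 0. CDC20 and CDC27 lie between 59.2 and 200 fragments, ANAPC11 and FZR1 fall to 2.7 and 2.5 in NMN-supplemented replicate 2, under the dashed line at 3 fragments, and all values of ANAPC10 and CDC23 lie under that line.

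Markers of the oocyte were present throughout. Of 14 listed, 13 were in the table, all above 0 in every sample, though DDX4 reached only 0.0635 FPKM. The summed level was 3488 and 3656 FPKM in the controls, 3443 and 3454 under heat stress, and 3292 and 3056 with NMN. BMP15 was the highest of them. Without it the sum was 1882 and 2010 FPKM in the controls, 1583 and 1514 under heat stress, and 1472 and 1305 with NMN, lower at each step. Single markers moved both ways, with GDF9 lower and WEE2 higher at each step. Of 13 cumulus and granulosa cell markers in the table, INHA and AMH were at 0 in all 6 samples and PTX3 in 5. Their summed level was 17.6 and 14.2 FPKM in the controls, 11.2 and 8.29 under heat stress, and 5.35 and 11.7 with NMN. INHBA made up most of it, and the other 12 together reached 0.993 to 1.84 FPKM. The summed level of 3 leukocyte markers was at most 0.474 FPKM. Mitochondrially encoded genes took 61.7% to 66.4% of the FPKM sum in the controls, 62.4% to 71.6% under heat stress, and 74.2% to 74.7% with NMN. In heat-stressed replicate 1 a further 13.9% fell on the pseudogene LOC100513953, which was at 0 in the other 5 samples. In bulk RNA, less of a message per oocyte and more of other RNA cannot be told apart.

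Differences were tested with limma on log2(FPKM + 1) over the 4713 genes with a mean of at least 1 FPKM, and a gene was called at an unadjusted P under 0.05. This scale understates the change of low genes. CDC20, CDC27, ANAPC11 and CDC26 passed this filter and the other 6 members did not. The comparison of heat-stressed with control samples and both comparisons of NMN-supplemented samples share samples, so they are not independent of each other. Of the 4 tested members, 2 were called lower in heat-stressed than in control samples (CDC20 and CDC26), beside 10.1% of all tested genes called lower, 12.7% called higher and 22.8% called in all. Against heat-stressed samples, 1 member was called higher with NMN (CDC20) and 1 lower (ANAPC11), beside 7.15% and 6.45% of all genes, or 13.6% in all. Against controls, 1 was called higher with NMN (CDC27) and 1 lower (ANAPC11), beside 25.6% and 15.7%, or 41.3% in all. After adjustment 0.0% of genes were called in both comparisons with heat-stressed samples and 21.5% in that of NMN-supplemented with control samples, with ANAPC11 as the only member. Samples did not overlap for 3, 3 and 2 of the 4 members in this order of comparisons, beside 54.7%, 53.5% and 69.9% of all tested genes.

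CDC20 was lower under heat stress and higher again with NMN. It was measured at 7.74 and 8.34 FPKM in control samples, 5.24 and 6.06 in heat-stressed samples, and 9.90 and 7.13 in NMN-supplemented samples. Both heat-stressed samples lay under all 4 others, while the NMN-supplemented samples lay on either side of the controls. The mean in heat-stressed samples was 0.703 of that in controls, a log2 difference of -0.45 with a 95% interval of -0.88 to -0.01 (limma adjusted P = 0.215). The mean in NMN-supplemented samples was 1.51 times that in heat-stressed samples, a log2 difference of 0.50 with an interval of 0.07 to 0.94 (adjusted P = 0.350). Between NMN-supplemented and control samples the log2 difference was 0.06, with an interval of -0.37 to 0.49. The call against controls was lost without any 1 of the 4 samples compared, while the difference stayed at -0.49 without control 1, -0.40 without control 2, -0.36 without heat-stressed 1 and -0.53 without heat-stressed 2. It was also lost with FPKM rescaled to nuclear genes (-0.48), with no minimum FPKM, with the replicate number as a block, and where an absolute difference over 0.5 was asked for. The call with NMN was lost without heat-stressed 1 (0.42) or without NMN-supplemented 1 (0.29), which held the highest CDC20 value.

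FZR1, the other co-activator, lay far under CDC20 in every sample and fell outside the filter. Its values were 0.318 and 0.434 FPKM in control samples, 0.296 and 0.143 in heat-stressed samples, and 0.0872 and 0.0681 in NMN-supplemented samples. The groups did not overlap, and the order was control, heat-stressed, NMN-supplemented. Among the 6938 genes with a mean between 0.1 and 1 FPKM, 24.2% were lower without overlap in heat-stressed than in control samples, 22.9% in NMN-supplemented than in heat-stressed samples, and 34.3% in NMN-supplemented than in control samples. Setting the minimum at 0.1 FPKM brought FZR1 into the fit, where it was called lower in NMN-supplemented than in control samples (log2 difference -0.35, SE 0.09, limma adjusted P = 0.0892). At that minimum 27.8% of 11651 genes were called in this comparison, 16.0% for heat-stressed against control samples and 9.96% for NMN-supplemented against heat-stressed samples. FZR1 was called in neither of the last 2 comparisons (-0.18 in each, adjusted P = 0.410 and adjusted P = 0.540). With a pseudocount of 0.1 FPKM as well, an alternative chosen after the data were seen, the difference between NMN-supplemented and control samples was -1.41 (SE 0.34, adjusted P = 0.0820). In the NMN-supplemented samples FZR1 rested on an estimated 3.6 and 2.5 fragments, or 1.1 and 0.8 if its shortest transcript were the one present.

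The ratio of CDC20 to FZR1 FPKM was 24.4 and 19.2 in the controls, 17.7 and 42.4 under heat stress, and 114 and 105 with NMN. The control and heat-stressed samples overlapped and both NMN-supplemented samples lay above them. On log2(FPKM + 1) the difference between the genes was 2.72 ± 0.02 in the controls, 2.45 ± 0.25 under heat stress and 3.13 ± 0.28 with NMN (SD, n = 2), and with a pseudocount of 0.1 FPKM it was 4.11 ± 0.18, 4.21 ± 0.65 and 5.58 ± 0.22. This ratio was described and not tested. In the NMN-supplemented samples it rests on an estimated 3.6 and 2.5 fragments of FZR1.

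**Figure D3:**
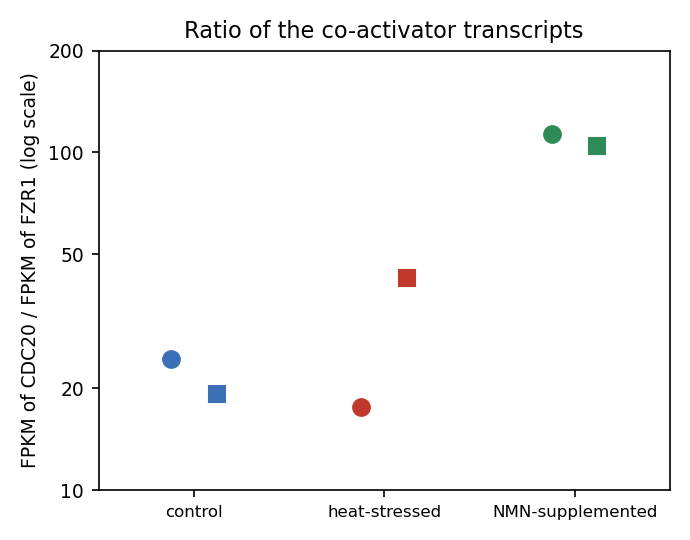
Ratio of CDC20 to FZR1 FPKM on a log y axis by group on the x axis, with circles for replicate 1 and squares for replicate 2. NMN-supplemented samples lie at 114 and 105, while the other 4 samples lie between 17.7 and 42.4. FZR1 rests on an estimated 3.6 and 2.5 fragments in the NMN-supplemented samples.

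ANAPC11, the RING subunit that binds the ubiquitin-conjugating enzyme, was lower with NMN than in both other groups. Its levels were 2.73 and 2.47 FPKM in control samples, 2.71 and 2.63 in heat-stressed samples, and 1.70 and 1.09 in NMN-supplemented samples. Both NMN-supplemented samples lay under the other 4, and the heat-stressed samples lay among the controls. Heat-stressed and control samples differed by 0.03 on the log2 scale, with a 95% interval of -0.36 to 0.42. The NMN-supplemented mean was 0.522 of the heat-stressed mean, a log2 difference of -0.63 with an interval of -1.02 to -0.24 (limma adjusted P = 0.268). It was 0.537 of the control mean, a log2 difference of -0.60 with an interval of -0.99 to -0.21 (adjusted P = 0.0487). Against heat-stressed samples the call held in all 17 alternatives that tested ANAPC11, with log2 differences from -0.92 to -0.44. Against controls the call was lost without control 1 (-0.55) or NMN-supplemented 2 (-0.42), and the adjusted P ranged from 0.0455 to 0.190 over the alternatives. All of this rests on few fragments, 5.7 and 2.7 in the NMN-supplemented samples against 6.7 to 10.5 in the others. The fit uses FPKM and does not model counting error apart, so these intervals and P-values may understate the uncertainty. The alternatives draw on the same fragments and cannot make up for this. No other gene overlaps the exons of ANAPC11, which lies at chr12:1095091-1099233.

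CDC27, the arm subunit that docks the co-activators (chr12:16810868-16882271), was higher with NMN than in controls. It was measured at 2.57 and 2.49 FPKM in control samples, 2.89 and 4.12 in heat-stressed samples, and 4.07 and 4.59 in NMN-supplemented samples. Both other groups lay above the controls without overlap, and heat-stressed 2 exceeded NMN-supplemented 1. The NMN-supplemented mean was 1.71 times the control mean, a log2 difference of 0.59 (SE 0.16, limma adjusted P = 0.0546). This call was lost without control 2 (0.58) or NMN-supplemented 2 (0.52). The heat-stressed samples were spread widely and lay 0.34 above controls (interval -0.07 to 0.74) and 0.26 below NMN-supplemented samples (interval of that rise -0.15 to 0.66), with no call. Without heat-stressed 1 the difference from controls was called at 0.53, and without heat-stressed 2 the difference between NMN-supplemented and heat-stressed samples was called at 0.45. Leaving out the other heat-stressed sample lowered these differences, to 0.14 without heat-stressed 2 and to 0.06 without heat-stressed 1.

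CDC26, which steadies CDC16 in the arm, was lower under heat stress. Its levels were 1.92 and 2.38 FPKM in control samples, 1.20 and 1.20 in heat-stressed samples, and 2.08 and 1.39 in NMN-supplemented samples. The heat-stressed samples lay under all others, and the NMN-supplemented samples overlapped with the controls. The heat-stressed mean was 0.560 of the control mean, a log2 difference of -0.51 with a 95% interval of -0.93 to -0.10 (limma adjusted P = 0.180). This call was lost without control 2 (-0.41) and without either heat-stressed sample (-0.51 each). With NMN the level was 0.30 above heat-stressed samples (interval -0.11 to 0.72) and 0.21 below controls (interval of the difference -0.62 to 0.20), with no call, and the former was called without NMN-supplemented 2 (0.48) and fell to 0.12 without NMN-supplemented 1. Of the 3623 nt of CDC26 exons, 402 nt overlap with PRPF4 on the other strand, and the library kit does not mark strand, so reads there cannot be assigned.

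**Figure D4:**
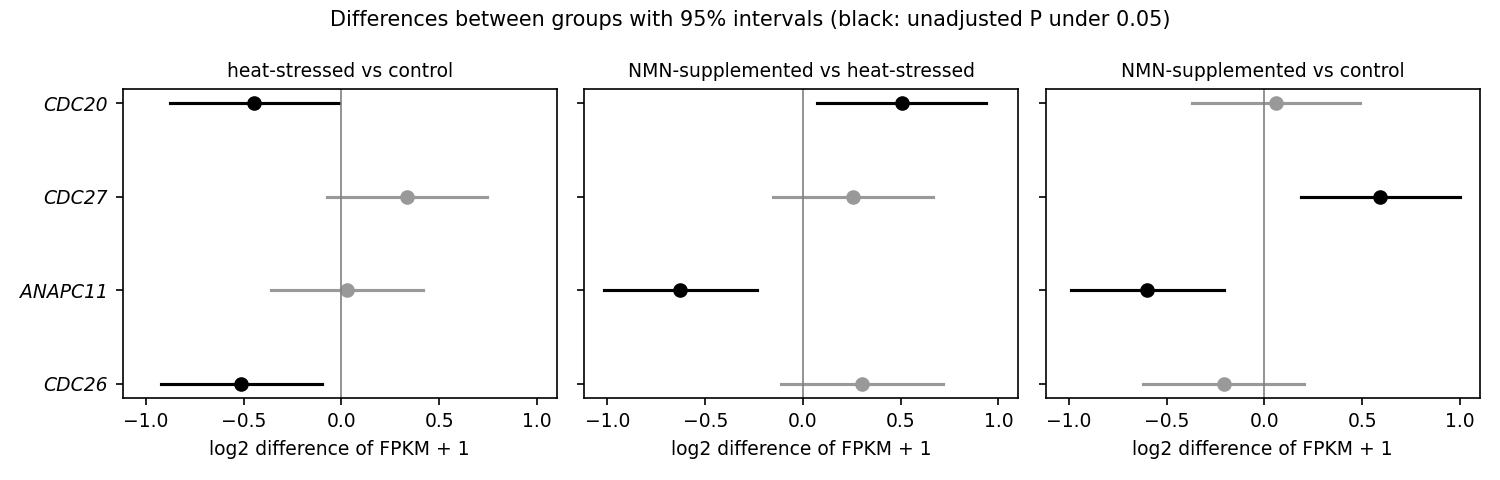
Log2 difference of FPKM + 1 on the x axis for the 4 tested members on the y axis in the 3 comparisons, with points for the fitted difference, bars for its 95% interval and black for an unadjusted limma P under 0.05. CDC20 and CDC26 are lower in the first panel, CDC20 is higher and ANAPC11 lower in the second, and CDC27 is higher and ANAPC11 lower in the third.

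CDC16, an arm subunit, ranged from 0.407 to 0.642 FPKM with overlap in all comparisons. ANAPC1, the largest scaffold subunit, was listed at 0.267 and 0.303 FPKM in the controls, 0.270 and 0.344 under heat stress, and 0.475 and 0.450 with NMN. Both NMN-supplemented samples lay above the other 4, at 1.62 times the control mean. Of the 12339 nt of ANAPC1 exons, 698 nt overlap with LOC100520015 on the other strand, and reads there cannot be assigned. At a minimum of 0.1 FPKM this difference was not called (log2 difference 0.19, SE 0.07, limma adjusted P = 0.181). With a pseudocount of 0.1 FPKM as well, the alternative chosen after the data were seen, it was just called (0.55, SE 0.21, limma unadjusted P = 0.0496, adjusted P = 0.179). That alternative called 3240 of 11651 genes in this comparison. Of the 4 members between 0.1 and 1 FPKM, 2 did not overlap in each comparison (FZR1 in all, ANAPC10 in heat-stressed against control samples and ANAPC1 in both others), beside 42.0%, 38.9% and 54.3% of all genes at these levels.

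ANAPC10, which helps to bind the destruction box of substrates, was at 0.207 and 0.105 FPKM in the controls, 0.261 and 0.209 under heat stress, and 0.231 and 0.166 with NMN, and with the minimum at 0.1 FPKM it was called in no comparison (adjusted P = 0.561, adjusted P = 0.854 and adjusted P = 0.683). ANAPC4, a scaffold subunit, was listed at up to 0.0888 FPKM and at 0 in heat-stressed 2, where 3 fragments would have been worth 0.0904 FPKM. CDC23, an arm subunit, was listed at 0.0122 FPKM in control 2 and at 0 in the other 5 samples, where 3 fragments would have been worth 0.124 to 0.170 FPKM. Of its exon length 48.2% overlaps with KIF20A on the other strand, so the value of CDC23 is uncertain.

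The median log2 difference of the 4 tested members was -0.21 for heat-stressed against control samples, 0.28 for NMN-supplemented against heat-stressed samples and -0.07 for NMN-supplemented against control samples, beside 0.05, 0.08 and 0.11 for all tested genes. The calls of all genes split into 598 higher and 476 lower for heat-stressed against control samples, and into 333 and 488 when the FPKM were rescaled to nuclear genes without LOC100513953. For NMN-supplemented against heat-stressed samples they split into 337 and 304, and into 218 and 310 after quantile normalization. Under both scalings ANAPC11 was still called lower in both comparisons with NMN and CDC27 higher in NMN-supplemented than in control samples.

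The genes around APC/C were read from 5 lists of 44 genes, of which 29 were tested. For heat-stressed against control samples, 2 were called higher and 5 lower. For NMN-supplemented against heat-stressed samples, 3 were called higher and 2 lower. For NMN-supplemented against control samples, 8 were called higher and 7 lower, and 7 of these 15 held after adjustment. Of all tested genes 22.8%, 13.6% and 41.3% were called in this order, and 21.5% after adjustment in the last, so the counts of the 29 genes lay near this background. The medians of 0.00, 0.14 and 0.14 stood beside 0.05, 0.08 and 0.11 for all tested genes. Of these 27 calls, 11 held in every alternative that tested the gene, namely AURKA in all 3 comparisons, FBXO43 and PLK1 against controls in both groups, TRIP13 in heat-stressed against control samples, and CCNA2, MAD2L1BP and UBE2D1 in NMN-supplemented against control samples. Asking for an absolute difference over 0.5 ended each call smaller than that, which is not repeated below.

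Among the 6 other subunits, ANAPC15 at 6.10 to 8.54 FPKM and ANAPC16 at 2.55 to 4.35 FPKM were tested, and neither was called in any comparison. ANAPC7 at 0.571 to 1.16, ANAPC13 at 0.141 to 0.940, ANAPC5 at 0.0270 to 0.132 and ANAPC2 at up to 0.154 FPKM lay under the filter. ANAPC2, which pairs with ANAPC11 in the catalytic core, was listed at 0 in both NMN-supplemented samples. It was at 0.0518 and 0.154 FPKM in the controls and 0.0202 and 0.0554 under heat stress. At such levels a 0 says little, and ANAPC2 was not tested.

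Of the 3 ubiquitin-conjugating enzymes that work with ANAPC11, UBE2S was called lower than controls in both groups and UBE2D1 higher with NMN. UBE2C, which starts the chain, was at 30.4 and 36.6 FPKM in the controls, 27.4 and 32.6 under heat stress, and 35.9 and 32.8 with NMN, with no call. UBE2S, which extends the chain, was at 28.6 and 34.3 FPKM in the controls, 24.6 and 21.9 under heat stress, and 20.8 and 22.1 with NMN. Its log2 difference from controls was -0.42 under heat stress (SE 0.14, limma adjusted P = 0.181), lost without control 2 or heat-stressed 2 (-0.34 to -0.29), and -0.53 with NMN (adjusted P = 0.0479), lost without NMN-supplemented 1 (-0.48). UBE2D1, which can also start the chain, was at 0.936 and 1.26 FPKM in the controls, 1.36 and 1.13 under heat stress, and 1.99 and 2.01 with NMN. It was higher with NMN than in controls (0.52, SE 0.14, adjusted P = 0.0481) and than under heat stress (0.42, adjusted P = 0.342), the latter lost without heat-stressed 2 or either NMN-supplemented sample (0.35 to 0.42).

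The inhibitors FBXO43 and FBXO5 stood at higher FPKM than any member of the complex. FBXO43, which holds the metaphase II arrest, was at 20.9 and 18.5 FPKM in the controls, 30.6 and 35.3 under heat stress, and 43.4 and 36.1 with NMN. Both groups lay above the controls, by a log2 difference of 0.71 under heat stress (SE 0.15, limma adjusted P = 0.120) and 0.97 with NMN (adjusted P = 0.0211). FBXO5 (EMI1), which restrains APC/C earlier in the cycle, was at 39.8 and 40.2 FPKM in the controls, 37.5 and 41.9 under heat stress, and 55.1 and 47.4 with NMN. It was called higher with NMN than under heat stress (0.36, SE 0.13, adjusted P = 0.352) and than in controls (0.35, adjusted P = 0.0967). The former call was lost without heat-stressed 1 or NMN-supplemented 1 (0.25 to 0.28) and the latter without NMN-supplemented 1 or either control (0.24 to 0.35). Both were also lost after quantile normalization (0.23 and 0.17), with nuclear scaling and with the replicate block.

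Of the checkpoint genes, TRIP13, the ATPase that remodels MAD2, was at 5.40 and 5.85 FPKM in the controls, 3.03 and 3.55 under heat stress, and 4.24 and 4.02 with NMN. It was lower than controls by -0.63 under heat stress (SE 0.12, limma adjusted P = 0.118) and by -0.37 with NMN (adjusted P = 0.0777), the latter lost without control 2 or either NMN-supplemented sample (-0.40 to -0.32) and with nuclear scaling (-0.36). MAD2L1BP, which links TRIP13 to MAD2, had a mean of 4.71 ± 0.40 FPKM (SD, n = 2) in the controls and was at 4.41 and 2.99 under heat stress, and 2.33 and 2.44 with NMN. It was lower with NMN than in controls (-0.75, SE 0.17, adjusted P = 0.0378) and than under heat stress (-0.46, adjusted P = 0.357), the latter lost without any 1 sample other than heat-stressed 2 (-0.48 to -0.24), with the replicate block and with only the compared groups in the fit. MAD2L1, BUB1B and BUB3, which make up the checkpoint complex with CDC20, had no call, and MAD2L2 lay under the filter.

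Of 23 substrates, 16 were tested. AURKA, a spindle kinase degraded through FZR1, was at 31.6 and 39.1 FPKM in the controls, 18.7 and 17.0 under heat stress, and 9.75 and 11.4 with NMN. It was lower at each step without overlap, with a log2 difference from controls of -0.94 under heat stress (SE 0.15, limma adjusted P = 0.111) and -1.65 with NMN (adjusted P = 0.0197), and of -0.71 with NMN from heat stress alone (adjusted P = 0.222). PLK1, a mitotic kinase, was at 7.15 and 6.68 FPKM in the controls, 3.38 and 3.30 under heat stress, and 3.92 and 3.64 with NMN. It was lower than controls in both groups (-0.87, SE 0.11, adjusted P = 0.111, and -0.73, adjusted P = 0.0210). CDC6, a replication licensing factor, was called lower than controls in both groups (-0.48, adjusted P = 0.219, and -0.65, adjusted P = 0.0642), the former lost without any 1 sample other than control 1 (-0.48 to -0.22) and in 6 other alternatives, among them a pseudocount of 0.1 FPKM (-0.75) and the replicate block, and the latter without control 2 or NMN-supplemented 2 (-0.59 to -0.39). BIRC5, or survivin, was called lower with NMN than in controls (-0.88, adjusted P = 0.0816), which was lost without any 1 sample of these groups (-0.96 to -0.80).

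Of the cyclins tested, CCNB1 and CCNA2 were called, each higher with NMN, and CCNB2 and CCNB3 were not. CCNB1, the partner of CDK1, was at 54.4 and 59.8 FPKM in the controls, 65.3 and 61.9 under heat stress, and 80.4 and 68.7 with NMN. The log2 difference between NMN-supplemented and control samples was 0.37 (SE 0.13, limma adjusted P = 0.0845), lost without control 1 or NMN-supplemented 1 (0.26 to 0.31) and after quantile normalization (0.26). CCNA2 was at 15.4 and 13.2 FPKM in the controls, 16.5 and 18.3 under heat stress, and 21.5 and 22.9 with NMN. It was higher with NMN than in controls (0.60, SE 0.13, adjusted P = 0.0317) and than under heat stress (0.34, adjusted P = 0.357), the latter lost without any 1 sample of these 2 groups (0.27 to 0.40), after quantile (0.23), median (0.31) or nuclear scaling (0.39), and with the replicate block. SGO1, the guardian of centromeric cohesin, and HMMR, a spindle protein, were called higher with NMN than in controls (0.65, adjusted P = 0.0862, and 0.44, adjusted P = 0.0786), and both were lost without control 1 or NMN-supplemented 1 (0.38 to 0.46 and 0.31 to 0.34), SGO1 also after quantile normalization (0.55). PTTG1, which encodes securin, was at 17.2 and 18.4 FPKM in the controls, 15.3 and 15.4 under heat stress, and 17.6 and 14.3 with NMN, and was called in no comparison. USP44, a deubiquitinase that opposes the complex, was called higher than controls by 0.41 in both groups (adjusted P = 0.184 and adjusted P = 0.0839), each lost without control 2 and without other single samples (0.28 to 0.41 and 0.28 to 0.42), and each also after quantile (0.37 and 0.27) or nuclear scaling (0.37 and 0.42), that under heat stress also with only the compared groups in the fit.

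**Figure D5:**
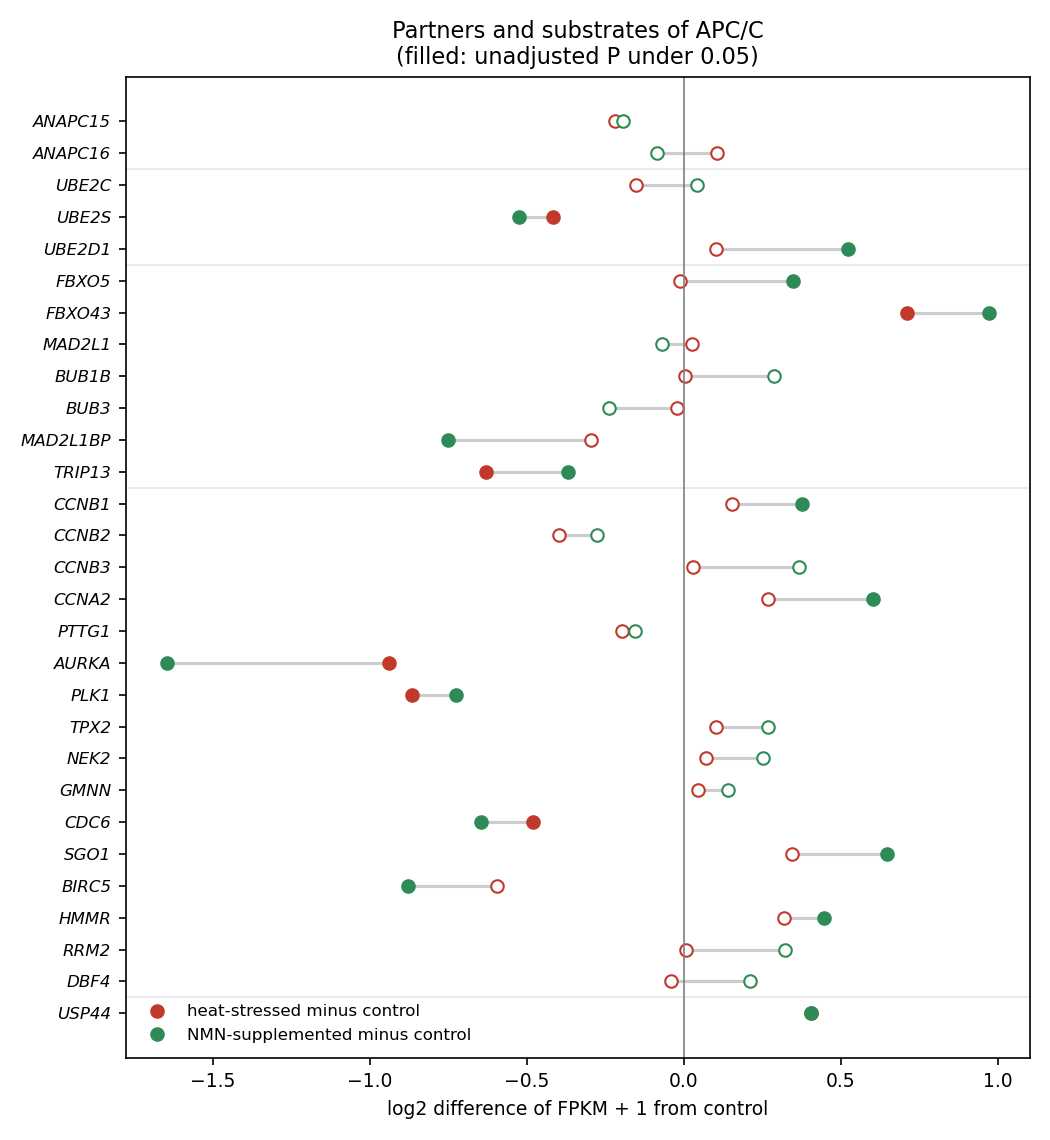
Log2 difference of FPKM + 1 from control on the x axis for the 29 tested partners and substrates of APC/C on the y axis, in red for heat-stressed and green for NMN-supplemented samples, with filled points for an unadjusted limma P under 0.05 and horizontal rules between the lists. AURKA, PLK1 and MAD2L1BP lie to the left and FBXO43, CCNA2 and SGO1 to the right, and the points of USP44 coincide.

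The genes whose log2(FPKM + 1) over the 6 samples was most like that of CDC20 among 4712 others were CLK3 (Pearson r = 0.976), SF3B2 (0.967) and LOC100623742 (0.960). Those most like FZR1 among the 4713 tested genes were MADD (0.994), SENP8 (0.994) and PLEKHO1 (0.988). These are the highest of many values over the same 6 samples, which differ in depth, and they are a description. PLEKHO1, with the widest range of the last 3, was at 1.78 and 2.67 FPKM in the controls, 1.67 and 1.16 under heat stress, and 0.701 and 0.739 with NMN.

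The levels of other RNA moved with some of these results. The share of mitochondrially encoded genes was highest in the NMN-supplemented samples, where ANAPC11 and FZR1 were lowest, and INHBA was highest in controls, at 16.4 and 13.2 FPKM against 4.35 to 10.2 in the other 4 samples. With FPKM rescaled to nuclear genes without LOC100513953, ANAPC11 differed by -0.59 in both NMN comparisons. The nuclear sums without this pseudogene were close between controls (60072 and 62744) and NMN-supplemented samples (61812 and 59499). This scaling could therefore change little against controls, and FZR1 was not fitted under it. Whether the share of mitochondrial RNA played a part was not tested. Of the 13 cumulus and granulosa cell markers in the table, 6 to 10 were above 0 in each sample. Their summed level was highest in the controls only through INHBA. Without it the sum was 1.23 and 0.993 FPKM in the controls, 1.08 and 1.84 under heat stress, and 0.995 and 1.53 with NMN. The part of such cells in these results was not tested.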

How the data were processed

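RNA of porcine oocytes (control, heat-stressed and NMN-supplemented, 2 samples each, grouped by the treatment label) was analysed. Per the methods, the authors trimmed reads with cutadapt and aligned them to susScr11 with tophat2, and the labels name Cufflinks 2.2.1, Cuffnorm and Cuffdiff. The authors deposited FPKM per gene and sample, which were used. Columns and lists with the authors' own group values, fold changes and P-values for their comparisons were not used.

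After a pseudocount of 1 FPKM and a log2 transformation, the genes averaging at least 1 FPKM entered a linear model with a term per group (limma 3.58.1, R 4.3.3), with a variance trend and Benjamini-Hochberg adjustment over all 4713 genes. The script was tested on simulated data with 200 changed genes. A call is an unadjusted P under 0.05. The 3 groups shared a fit, and so an estimate of the spread, since each has 2 samples. Depth, as the library size behind the deposited FPKM, was estimated as 7670000 to 12000000 fragments from the steps in the lowest FPKM of single-transcript genes. Estimated fragments used the median transcript length. Checked against the RefSeq annotation of Sscrofa11.1, from which sequences were read, the table's loci equal the gene for 6 of 10 members, while those of ANAPC1, ANAPC4, CDC23 and CDC26 also reach over neighbouring genes. The locus of ANAPC10 equals the gene but also holds LOC100625345. Python 3.11.15, pandas 2.3.3, scipy 1.17.1 and matplotlib 3.10.9 were used.

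The members and lists were chosen with earlier results of these data known. Genes named were all 10 members, pathway genes called in at least 1 comparison in which the compared samples did not overlap, CCNB1, PTTG1, FBXO5, FBXO43, UBE2C and UBE2S, and the 3 genes most like CDC20 and FZR1. Other subunits and checkpoint genes under this rule are given as values to account for their lists. Alternatives were a pseudocount of 0.1 FPKM, a minimum of 0.1 or 5 FPKM or none, quantile, median and nuclear scaling, a replicate block, only the compared groups, no trend, an absolute log2 difference over 0.5, and leaving out each sample. A pseudocount and minimum of 0.1 FPKM together were added after seeing the data. The replicate numbers did not pair the samples, with correlations of deviations of -0.032, -0.014 and 0.0080.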

Additional observations from a re-analysis of the deposited data

How the results depend on the processing

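Of 207 log2 differences of the 4 tested members under the alternatives, 184 kept their direction and their side of the threshold. These include differences that were not called and so had no call to lose. The call was lost in 17, most often for CDC20 in heat-stressed against control samples (8 of 18 alternatives). ANAPC11 in NMN-supplemented against heat-stressed samples lost it in 0 of 17. A further 3 gained a call and 3 turned in sign. The 3 that turned were uncalled and near 0: ANAPC11 in heat-stressed against control samples without control 2 (-0.02, in a range of -0.0242 to 0.0819 on leaving out a sample), and CDC20 in NMN-supplemented against control samples after quantile normalization (-0.0022) and without NMN-supplemented 1 (-0.152, in a range up to 0.271). Of the 2 members called for heat-stressed against control samples, 1 was left with a minimum of 5 FPKM, no minimum, nuclear scaling, the replicate block or a difference over 0.5, and leaving out a sample gave 0 to 2. For NMN-supplemented against heat-stressed samples 1 of 2 was left at a minimum of 5 FPKM, and leaving out a sample gave 1 to 3. For NMN-supplemented against control samples 0 were left at a minimum of 5 FPKM, where only CDC20 is tested, 4 were called with a pseudocount and minimum of 0.1 FPKM, and leaving out a sample gave 0 to 2. Counts of all genes called moved from 1074, 641 and 1948 to 1865, 1161 and 3236 at a minimum of 0.1 FPKM (11651 genes), 468, 266 and 791 at 5 FPKM (1672 genes), 2388, 1557 and 3700 with no minimum (20552 genes), 563, 302 and 1286 with a difference over 0.5, and 1800, 1276 and 3240 with a pseudocount and minimum of 0.1 FPKM, and leaving out a sample gave 648 to 1015, 327 to 701 and 1233 to 1941. Fewer or more genes enter at another minimum. The minimum also changed the count after adjustment for NMN-supplemented against control samples. From 1015 it went to 86 at a minimum of 0.1 FPKM, 66 with a pseudocount and minimum of 0.1 FPKM, 0 with no minimum, and 546 of 1672 at 5 FPKM. Genes called after adjustment for NMN-supplemented against control samples fell from 1015 to 373 without control 1, 0 without control 2 (1370 at an unadjusted P under 0.05) and 1 without either NMN-supplemented sample. The log2 difference of CDC20 and FZR1 was 4.11, 4.21 and 5.58 with a pseudocount of 0.1 FPKM, which understates a low gene less. With the replicate block, 937, 527 and 1815 genes and 1, 2 and 2 members were called, and CDC20 lost its call for heat-stressed against control samples. The samples share only a number, so the block is no pairing. With control samples alone 4 members changed place in the order of levels. ANAPC11 and FZR1 are limited by depth in the NMN-supplemented samples, and every alternative draws on the same few fragments.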
